A study of Drosophila melanogaster with 40 samples.

Results

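In the embryo, mRNAs that carry several ribosomes sediment as polysomes, and the more ribosomes an mRNA carries the further it travels into a sucrose gradient. The part of a gradient with heavy polysomes was compared here with the part with lighter polysomes in wild-type *Drosophila melanogaster* embryos. The 6 arrays are those whose labels give the wild-type genotype and fraction 3 or fraction 4, replicates 1, 2 and 3, and they are 6 of the 40 arrays of the series. The whole study followed mRNAs over 10 gradients of 4 pools each, to find which of them move into polysomes when the RNA-binding protein Smaug is missing.

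The wild-type embryos were of the strain labelled W1118, were raised at 25 degrees and were collected 0 to 2 hours after egg laying. They were lysed in a buffer with cycloheximide, which holds ribosomes on mRNA. Each extract was spun through a 12 mL gradient of 15% to 45% sucrose. Pool 1 was the top 4 mL, pool 2 the next 2 mL, pool 3 the next 3 mL, and pool 4 the last 3 mL together with the pellet. Pool 4 thus also held anything that sedimented to the bottom of the tube, whether a polysome or another large complex. The comparison groups came from embryos of mothers homozygous for the *smaug1* allele, of the same age. There were 3 gradients with no further treatment, lysed in the same buffer with cycloheximide as wild type. Another 2 were of lysate treated with puromycin and 2 of lysate treated with cycloheximide in its place. The lysates of these drug-treated gradients were made in another buffer, to which the drug was then added. Wild-type gradient 1 was labelled with Cy3, and gradients 2 and 3 with Cy5, so dye and gradient cannot be told apart, but both pools of a gradient carried the same dye.

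Translation of stored maternal mRNA makes the proteins of the embryo before its own genome is switched on. How many ribosomes an mRNA can hold depends on how often ribosomes start on it and on how long its reading frame is, so a long mRNA can reach the bottom of a gradient that a short one cannot reach at full loading. A pool holds RNA of a given sedimentation, and a level in it depends both on how much of an mRNA the embryo has and on where that mRNA sediments. The log2 level in pool 4 minus the log2 level in pool 3 of the same gradient leaves the amount out, and is called the pool 4 to pool 3 difference below.

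The table held log2 levels of 6524 transcripts. The median level in pool 3 was 11.92, 11.34 and 12.37 in gradients 1, 2 and 3, and that in pool 4 was 12.04, 12.21 and 12.42. The median pool 4 to pool 3 difference over all transcripts was 0.07, 0.84 and -0.02, a mean of 0.30 ± 0.47 (SD, n = 3). Gradient 2 alone stood clear of 0, and the mean did not exceed the spread between gradients (exact two-sided sign-flip permutation p = 0.5, where the smallest p that 3 gradients allow is 0.25). Of all transcripts, 55.5%, 73.1% and 48.8% were higher in pool 4 than in pool 3. As a share of the summed linear level of pools 3 and 4, the median transcript had 51.2%, 64.1% and 49.7% in pool 4. On the deposited scale the signal of the median transcript was thus about evenly divided between both pools in gradients 1 and 3. In gradient 2 it lay more in pool 4. These shares depend on how the arrays were normalised and do not measure how the mRNA of the embryo was divided.

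Gradient 2 also stood apart in its spread. The SD of the pool 4 to pool 3 difference over transcripts was 0.59 in gradient 1, 1.45 in gradient 2 and 0.77 in gradient 3. Levels in pool 3 and pool 4 of the same gradient correlated across transcripts with r of 0.89, 0.63 and 0.84. After each array was centred on its median, 69 transcripts of gradient 2 differed by more than 4 on the log2 scale, against 1 in gradient 1 and 8 in gradient 3. Results are therefore given with and without gradient 2, which was singled out from these same differences.

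**Figure D1:**
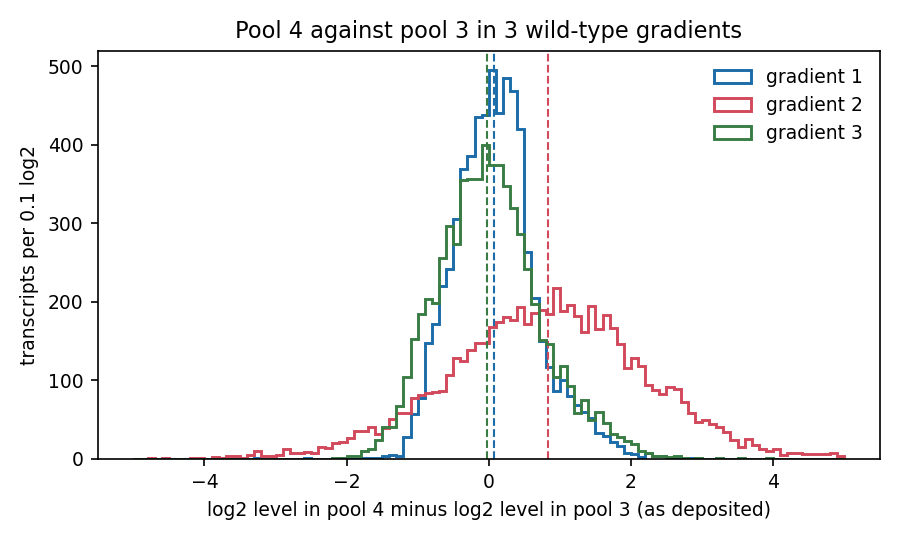
Distribution of the pool 4 to pool 3 difference (x axis, log2, as deposited) over transcripts (y axis, transcripts per bin of 0.1) in the 3 wild-type gradients, with each median as a dashed line. Gradients 1 and 3 are narrow and centred near 0, and gradient 2 is wide with a median of 0.84. The axis leaves out 1, 30 and 8 transcripts beyond 5 on either side.

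Although their medians differed, the 3 gradients ordered transcripts in a related way. Across the 6524 transcripts, the centred pool 4 to pool 3 difference correlated with r = 0.75 between gradients 1 and 3, and with r = 0.56 between gradient 2 and either of them. These correlations describe transcripts measured on the same probes and normalised together, which are not independent replicates. The centred difference had the same sign in 78.9% of transcripts in gradients 1 and 3, in 70.4% in gradients 1 and 2, and in 71.5% in gradients 2 and 3. Over the mean of the 3 gradients, the middle 50% of transcripts lay between -0.58 and 0.47, and the outermost 1% at each end lay below -1.81 or above 2.04. In all 3 gradients 1806 transcripts (27.7%) were higher in pool 4 than the array medians would give, and 2136 (32.7%) were lower. On the deposited scale these counts were 2468 (37.8%) and 1211 (18.6%), the shift being that of the array medians.

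**Figure D2:**
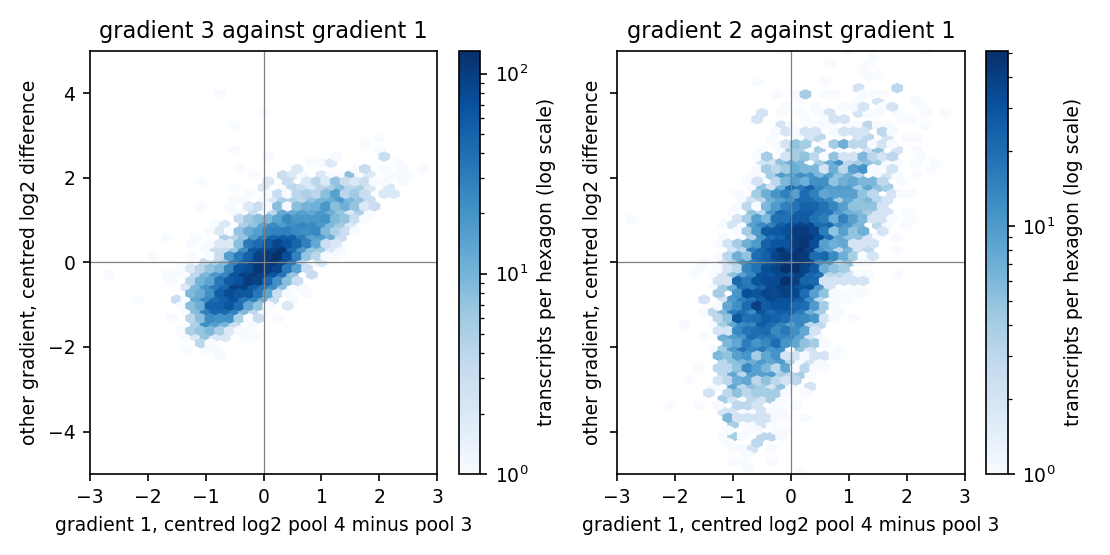
Centred pool 4 to pool 3 difference (log2) of each transcript in gradient 3 (left) or gradient 2 (right), on the y axis, against gradient 1, on the x axis, with colour for the number of transcripts per hexagon on a log scale. Both clouds slope upward (r = 0.75 and 0.56), and gradient 2 is the wider. The axes leave out 10 and 24 transcripts.

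For single transcripts, limma tested the 3 paired differences against 0, with p-values adjusted over all 6524 rows by the method of Benjamini and Hochberg. No transcript had an adjusted p under 0.05, which is 0% of those tested, either as deposited or centred. At an unadjusted p under 0.05, 1085 transcripts were higher in pool 4 as deposited (16.6%) and 405 lower (6.21%). Centred, 892 were higher (13.7%) and 1143 lower (17.5%). The smallest adjusted p in limma was 0.12 as deposited and 0.0835 centred, and 367 transcripts shared the latter. A looser threshold of 0.1 on the centred adjusted p would have taken 556 transcripts that were higher in pool 4 and 528 that were lower.

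The count of calls was highest without gradient 2. With gradients 1 and 3 alone, limma called 2392 transcripts centred, 1020 higher in pool 4 (15.6%) and 1372 lower (21.0%), and 1902 as deposited, 1018 higher and 884 lower. Leaving out gradient 1 gave 262 calls as deposited and 120 centred, 86 higher and 34 lower. Leaving out gradient 3 gave 201 as deposited and 0 centred, where a centred unadjusted p under 0.05 was reached by 480 higher and 545 lower transcripts. Gradients 1 and 3 were labelled with different dyes.

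The gene table used here named 35 of the 6524 rows. It paired 8 of them with a gene by the identifier of the transcript, and 27 through reading frames annotated on the transcript. In 22 of these 27, the reading frames belonged to more than 1 gene, that is, 1 mRNA carries the coding sequences of several proteins. They are written here with both names, the gene of the main frame first. Values belong to the transcript and not to either gene. The remaining rows carry identifiers only, so families such as histones, ribosomal proteins or the proteasome could not be described, with at most 2 members of any fixed list named. None of 16 fixed markers of maternal and early zygotic mRNA was among the named rows, so the labelled age could not be checked against them.

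Of the 35 named transcripts, 6 were higher in pool 4 in all 3 gradients after centring, where 27.7% of all transcripts were, 19 were lower in all 3, where 32.7% were, and 10 were mixed. In limma none passed an adjusted p of 0.05. At an unadjusted p under 0.05, 3 were higher and 9 lower, where 13.7% and 17.5% of all transcripts were. Without gradient 2, 4 were called higher and 11 lower, where 15.6% and 21.0% of all were. None of these was called without gradient 1 or without gradient 3, and gradient 2 was singled out after its spread was seen. The 6 named transcripts that were higher in pool 4 were *kis*, *alpha-Spec*, *Dyrk3*, *Uba1*, *Mvk/CG33672* and *fend*. Lengths of transcripts or reading frames were not available here, and a relation to length was not tested. Those that were lower included the histone H4 variant gene *His4r* and most of the transcripts with reading frames of more than 1 gene.

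**Figure D3:**
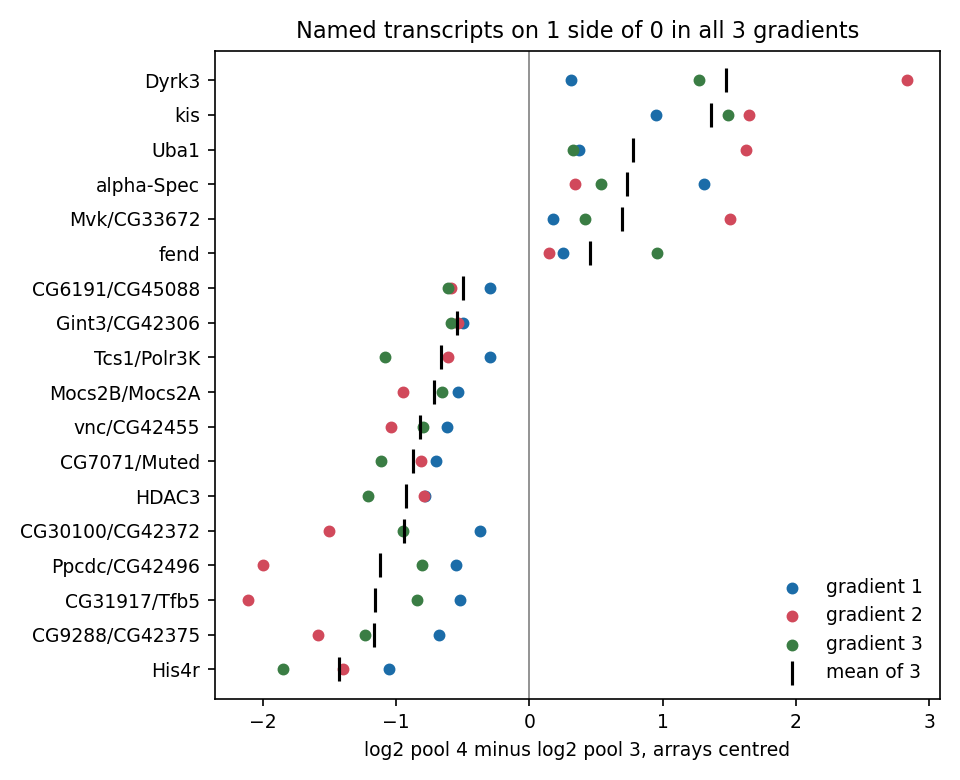
Centred pool 4 to pool 3 difference (x axis, log2) of the 18 named transcripts (y axis) that lay on 1 side of 0 in all 3 gradients, 6 higher and the 12 lower with the smallest p, with a dot per gradient and a bar for the mean. The side of 0 was the criterion for showing them. *Dyrk3*, *Uba1* and *Mvk/CG33672* are spread widely, with gradient 2 as their highest value.

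*kis* encodes Kismet, a chromatin remodeller of the CHD family. Its level in pool 3 was 12.53, 10.99 and 12.29 in gradients 1, 2 and 3, and in pool 4 it was 13.60, 13.50 and 13.83. All 3 values in pool 4 were above all 3 in pool 3. Here and below, transcripts were picked for their side of 0 in all 3 gradients. How many of all transcripts had pools without overlap was not counted, so this separation is a description only. Pool 4 held 67.7%, 85.1% and 74.4% of the *kis* signal of both pools, a mean of 75.7% ± 8.8 (SD, n = 3). The centred difference of 0.95, 1.65 and 1.49 had a mean of 1.36 (SE 0.26), or 2.57-fold, with an adjusted p of 0.0835 in limma. This mean stood at percentile 95.2 of all transcripts, and without gradient 2 it was 1.22 with an adjusted p of 0.000541. When gradient 1 or gradient 3 was left out in its place, the adjusted p in limma was 0.0853 or 0.314. In pool 1 the level of *kis* was 11.02, 10.97 and 10.74 and in pool 2 it was 11.77, 10.26 and 12.48, so that pool 4 was the highest of the 4 pools in each gradient.

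*alpha-Spec* encodes the alpha chain of spectrin, a protein of the membrane skeleton. Its level was 9.78, 10.19 and 11.37 in pool 3 and 11.21, 11.39 and 11.96 in pool 4. Within each gradient pool 4 was the higher, although the ranges of both pools overlapped, since gradient 3 was the highest in both. The centred differences were 1.31, 0.34 and 0.54, with a mean of 0.73 (SE 0.29) and an adjusted p of 0.16. Here gradient 2 gave the smallest value, and without it the mean was 0.93 with an adjusted p of 0.00434. With gradient 1 or gradient 3 left out in its place, the adjusted p in limma was 0.604 or 0.408. Pool 4 held 67.5% ± 6.7 (SD, n = 3) of the signal of both pools.

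*Uba1* encodes the E1 enzyme that activates ubiquitin, the first step in tagging proteins with it. Its level of 13.39, 12.09 and 13.74 in pool 3 and of 13.88, 14.57 and 14.12 in pool 4 did not overlap. The centred differences were 0.37, 1.62 and 0.33, with a mean of 0.78 (SE 0.34) and an adjusted p of 0.187. Gradient 2 carried most of this mean, and without it the mean was 0.35 with an adjusted p of 0.179. The same was seen in *Mvk/CG33672*, the transcript of mevalonate kinase, an enzyme of isoprenoid synthesis. Its centred differences were 0.17, 1.51 and 0.42, and without gradient 2 the mean was 0.30 in place of 0.70, with an adjusted p of 0.266.

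*Dyrk3*, which encodes a dual-specificity protein kinase, had a level of 9.02, 6.78 and 8.15 in pool 3 and of 9.45, 10.47 and 9.46 in pool 4. It was higher in pool 4 than in pool 3 in all gradients, and far more so in gradient 2, where the level in pool 3 was the lowest of the 6. Its centred mean of 1.47 (SE 0.50) had an adjusted p of 0.122, and without gradient 2 it was 0.79 with an adjusted p of 0.0144. Its mean signal over the wild-type arrays was among the lowest 0.4%. The last of the 6, *fend*, had levels of 11.84, 10.99 and 11.69 in pool 3 and of 12.21, 12.00 and 12.69 in pool 4, and its centred mean was 0.45 (SE 0.28, adjusted p = 0.296). Its centred differences were 0.25, 0.15 and 0.96, the largest of them in gradient 3. Without gradient 2 its mean was 0.60 with an adjusted p of 0.0393.

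At the other end was *His4r*, a gene for histone H4 that lies outside the replication-dependent histone cluster. Its level was 9.42, 7.27 and 9.33 in pool 3 and 8.49, 6.74 and 7.53 in pool 4. In each gradient pool 4 was lower, and pool 2, with 10.21, 9.55 and 9.72, was the highest of the 4 pools. Pool 4 held 32.5% ± 9.4 (SD, n = 3) of the signal of pools 3 and 4. The centred differences were -1.05, -1.40 and -1.85, with a mean of -1.43 (SE 0.27) and an adjusted p of 0.0835 in limma. Without gradient 2 the mean was -1.45 with an adjusted p of 0.000249. With gradient 1 or gradient 3 left out in its place, the adjusted p in limma was 0.0799 or 0.314. Its mean signal over the wild-type arrays was among the lowest 0.1%. Histone H4 genes share much of their coding sequence, and whether these probes also read other H4 mRNAs was not tested.

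*HDAC3* encodes a histone deacetylase. Its level was 13.07, 12.65 and 13.88 in pool 3 and 12.41, 12.72 and 12.72 in pool 4, and pool 3 was the highest of the 4 pools in gradients 1 and 3. On the deposited scale gradient 2 gave a difference of 0.07, whereas gradients 1 and 3 gave -0.66 and -1.16. Centring brought the 3 values together, at -0.78, -0.79 and -1.21, with a mean of -0.93 (SE 0.24) and an adjusted p of 0.0903. Without gradient 2 the mean was -0.996 with an adjusted p of 0.00174. With gradient 1 or gradient 3 left out in its place, the adjusted p in limma was 0.228 or 0.394.

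**Figure D4:**
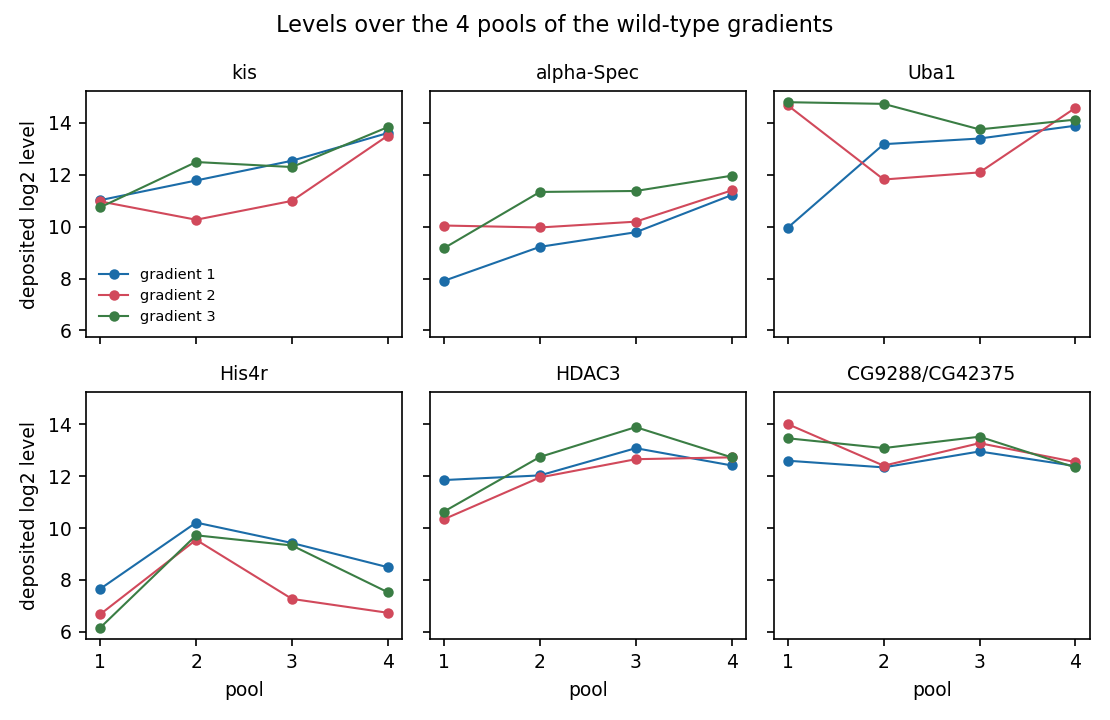
Deposited log2 level (y axis) of 6 named transcripts in pools 1 to 4 (x axis) of the 3 wild-type gradients, with a line per gradient. *kis* and *alpha-Spec* reach their highest level in pool 4 and *His4r* in pool 2, and *Uba1* in pool 1 differs between gradients by over 4 on the log2 scale.

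The transcripts with reading frames of more than 1 gene lay mostly toward pool 3. Of the 22, 16 had a lower centred level in pool 4 in all 3 gradients, 1 a higher level and 5 were mixed, where 32.7% and 27.7% of all transcripts were lower or higher. The mean centred difference was below 0 in 19 of 22 (86.4%), against 52.4% of all transcripts, and the median was -0.52 against -0.05. On the deposited scale the medians were -0.18 and 0.29. None passed an adjusted p of 0.05 in limma with all gradients. At an unadjusted p under 0.05, 7 were lower and 0 higher, where 17.5% and 13.7% of all transcripts were. Without gradient 2, 9 were called lower and 0 higher, where 21.0% and 15.6% of all were. Their median signal was 11.8, and that of all transcripts 12.0. The group was formed from the annotation with values already known, and it is described here without a test.

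The lowest centred mean among them was that of *CG9288/CG42375*. Its level was 12.95, 13.27 and 13.52 in pool 3 and 12.39, 12.54 and 12.33 in pool 4, so the pools did not overlap. Pool 4 held 40.4%, 37.7% and 30.5% of the signal of both pools. The centred differences of -0.68, -1.59 and -1.23 gave a mean of -1.17 (SE 0.28) and an adjusted p of 0.0844. Without gradient 2 the mean was -0.96 with an adjusted p of 0.00265. With gradient 1 or gradient 3 left out in its place, the adjusted p in limma was 0.108 or 0.325.

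The next lowest centred mean was that of *CG31917/Tfb5*, whose second gene encodes a subunit of the transcription and repair factor TFIIH. It had levels of 11.55, 10.97 and 11.75 in pool 3 and of 11.15, 9.72 and 10.95 in pool 4. The centred mean of -1.16 (SE 0.37, adjusted p = 0.113) owed most to gradient 2, with -0.52, -2.11 and -0.85 in the 3 gradients. *Ppcdc/CG42496*, named for an enzyme of coenzyme A synthesis, had -0.55, -1.998 and -0.81 and a mean of -1.12 (SE 0.35, adjusted p = 0.112). Without gradient 2 both had a mean of -0.68, with adjusted p of 0.0154 and 0.0153.

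In other members the 3 gradients lay closer together. *CG7071/Muted*, whose second gene encodes a subunit of the BLOC-1 complex of lysosome-related organelles, had centred differences of -0.70, -0.81 and -1.11 (mean -0.87, SE 0.24, adjusted p = 0.0936). *vnc/CG42455* carries the frame of variable nurse cells, the catalytic subunit of an N-terminal acetyltransferase, and had -0.62, -1.03 and -0.80 (mean -0.82, SE 0.24, adjusted p = 0.0999). *Mocs2B/Mocs2A*, which encodes both subunits of molybdopterin synthase on a single mRNA, had -0.53, -0.95 and -0.66 (mean -0.71, SE 0.24, adjusted p = 0.122). All 3 were called without gradient 2, with adjusted p of 0.00318, 0.0114 and 0.028.

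The remaining 4 of the 12 lower transcripts had centred means between -0.94 and -0.50. *CG30100/CG42372* was faint and had -0.37, -1.50 and -0.95. *Tcs1/Polr3K*, which joins a gene of tRNA modification to one for a subunit of RNA polymerase III, had -0.29, -0.61 and -1.08. *Gint3/CG42306* had the closest values of the 12, -0.50, -0.54 and -0.59. The first 3 of these 4 had adjusted p of 0.0227, 0.0236 and 0.0416 without gradient 2, and *CG6191/CG45088*, with -0.30, -0.58 and -0.61, had 0.0913. On the deposited scale *CG7071/Muted*, *Tcs1/Polr3K*, *Gint3/CG42306* and *CG6191/CG45088* were higher in pool 4 in gradient 2, by 0.05, 0.25, 0.33 and 0.28, so their place below 0 there rests on centring.

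The smallest p in each direction belonged to transcripts without a gene name. FBtr0081685 had a level of 10.18, 10.38 and 11.38 in pool 3 and of 12.83, 13.63 and 13.49 in pool 4. Its centred mean was 2.33 (SE 0.24), or 5.03-fold, and pool 4 held 86.0% ± 4.6 (SD, n = 3) of the signal of both pools. FBtr0084699 had 11.74, 11.38 and 12.21 in pool 3 and 14.11, 14.64 and 14.35 in pool 4, with a centred mean of 2.25 (SE 0.24). In both, all 3 levels in pool 4 were above all 3 in pool 3. In the other direction, FBtr0078807 had 11.52, 12.74 and 12.97 in pool 3 and 10.50, 11.48 and 11.19 in pool 4, and FBtr0072678 had 11.13, 11.52 and 12.16 against 9.99, 10.16 and 10.68. Here all 3 levels in pool 4 were below all 3 in pool 3. These 4 were picked for the smallest p, so the separation of their pools is no further support. Their centred means were -1.69 (SE 0.29) and -1.67 (SE 0.29), and pool 4 held 28.4% ± 5.4 and 28.5% ± 2.4 (SD, n = 3) of the signal of both pools. All 4 had an adjusted p of 0.0835 in limma, and without gradient 2 it ran from 6.8e-06 to 0.000182. Without gradient 1 it ran from 0.0450 to 0.0619, and without gradient 3 it was 0.314 in all 4.

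Where a transcript lay between pools 3 and 4 had little relation to its level higher up in the gradient. Across transcripts, the centred mean difference correlated with the wild-type level in pool 1 with r = -0.05 and in pool 2 with r = -0.03, pools that the comparison did not use. When transcripts were divided into 4 equal groups by their mean level in pools 1 and 2, the middle 50% of centred means ran from -0.67 to 0.60 in the faintest group and from -0.52 to 0.36 in the brightest. The median SD between gradients was 0.53 in the faintest group and 0.42 in the brightest. The share of transcripts on different sides of 0 in different gradients was 36.1% in the faintest and 43.8% in the brightest.

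The wild-type pattern was then set beside the gradients of *smaug*-mutant embryos, none of which had been used to form the groups of 1806 and 2136 transcripts. In *smaug*-mutant gradients 1, 2 and 3, 71.1%, 54.2% and 79.1% of the 1806 transcripts were higher in pool 4 after centring, as were 29.9%, 54.9% and 17.4% of the 2136. Gradients 1 and 3 thus divided the groups as wild type did, and in gradient 2 the shares were nearly equal. Across all transcripts, the wild-type mean correlated with these gradients with r of 0.41, -0.01 and 0.58. These correlations are descriptions over 6524 transcripts on the same probes. The SD of the difference was 1.29 in *smaug*-mutant gradient 2, against 0.39 and 0.66 in the other mutant gradients.

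In the test of the difference between genotypes, limma called no transcript (0%) at an adjusted p under 0.05 with 3 gradients of each. After centring, 428 transcripts had an unadjusted p under 0.05 with a higher value in wild type and 508 with a lower one, and the smallest adjusted p was 0.338. On the deposited scale none was called either, but 1975 were higher and only 7 lower in wild type by the unadjusted p. The deposited median differences of the *smaug*-mutant gradients, -0.39, -1.30 and -0.43, all lay below the wild-type ones given above, a shift of whole arrays that centring takes out. *kis* had centred differences of 0.30, -0.83 and 0.64 in the *smaug*-mutant gradients, 1.33 below wild type on average (unadjusted p = 0.022 and adjusted p = 0.338 in limma). *HDAC3* had -0.64, -1.06 and -0.53, and its difference between genotypes was -0.18 (adjusted p = 0.792). For *Mvk/CG33672* the mutant values, -0.55, -0.16 and -1.08, all lay below the wild-type ones, with a difference of 1.30 (adjusted p = 0.338).

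Of the mutant gradients, those of lysate treated with cycloheximide in place of puromycin correlated most with wild type. There, 86.8% and 92.2% of the 1806 transcripts were higher in pool 4, against 10.2% and 5.71% of the 2136, and r with the wild-type mean was 0.71 and 0.79 across transcripts. *kis*, at 1.76 and 1.74, and *Uba1*, at 2.06 and 1.75, lay as far toward pool 4 there as in any wild-type gradient. *alpha-Spec* had 1.57 and 1.06, and *His4r* -1.13 and -2.31. *Dyrk3*, with -0.12 and 0.36, did not follow. The 22 transcripts with frames of more than 1 gene had a median of -0.42, and 20 of them were below 0 (90.9%), where all transcripts had a median of -0.08 and 54.6% below 0. Over the mean of the 3 untreated mutant gradients, the median of the 22 was -0.24, with 14 of them below 0. All transcripts had a median of 0.02 there, with 3178 of 6524 below 0.

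With puromycin, which makes ribosomes leave mRNA, the order of the groups relative to each other was turned. On the deposited scale the median pool 4 to pool 3 difference was -1.48 and -0.95, and 5.40% and 4.14% of all transcripts were higher in pool 4. A place above 0 in these gradients can therefore rest on centring. After centring, 21.4% and 11.7% of the 1806 transcripts were higher in pool 4, against 62.7% and 70.7% of the 2136. In pool 2 of the same gradients, the 1806 transcripts had centred medians of 0.49 and 0.73, and the 2136 of -0.62 and -0.87. Across transcripts, r with the wild-type mean was -0.37 and -0.46. *kis* had -1.30 and -0.94, and the 22 transcripts with frames of more than 1 gene had a median of 0.15, with 8 of them below 0 (36.4%). Of all transcripts 58.0% were below 0, with a median of -0.17. Against wild type, these gradients differ in genotype, in lysis buffer and incubation, and in the drug. Per the methods, the puromycin and cycloheximide gradients came from parts of the same mutant lysates, handled alike apart from the drug. After centring, the groups lay as in wild type in the cycloheximide gradients, and the other way in the puromycin gradients. There were 2 gradients of each drug, and neither this difference nor its cause was tested. Dye was swapped between both drugs from 1 replicate to the other.

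**Figure D5:**
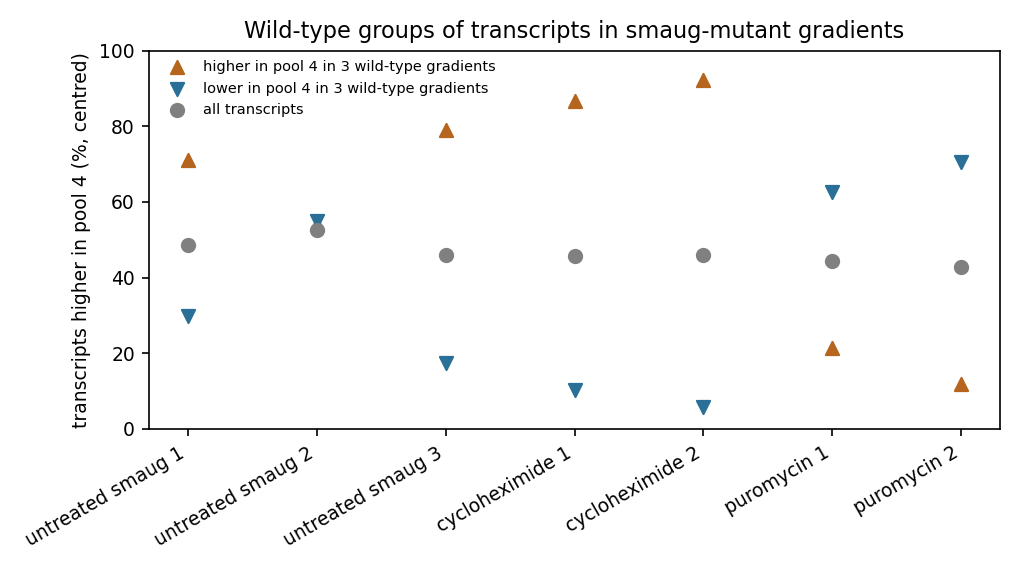
Share of transcripts higher in pool 4 than in pool 3 after centring (y axis, percent) in the 7 *smaug*-mutant gradients (x axis), for the 1806 transcripts that were higher in all 3 wild-type gradients, the 2136 that were lower in all 3, and all 6524. The upper and lower groups are apart in untreated gradients 1 and 3 and in both cycloheximide gradients, fall together in untreated gradient 2 (54.2% and 54.9%) and change places in both puromycin gradients.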

How the data were processed

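RNA of each pool was measured on custom NimbleGen expression arrays, 1 colour per sample. The deposited values are log2 levels, 1 per transcript and array, that the authors made by RMA quantile normalisation followed by a linear transformation of each array, fitted on Arabidopsis RNAs added to every pool. An error of this fit moves or stretches all values of an array. Each array was therefore also centred on its median, which takes out a shift but leaves a stretch in place. The log base is not stated, and was read as 2 from the use of RMA. The authors kept transcripts expressed above background, so transcripts below it are not analysed here. The genome build behind the identifiers is not given in the sources used here. No column was left out, and all values were kept, including 4 of exactly 1 in pool 4 of gradient 2. The number of arrays limits the precision, and levels say nothing of amounts between transcripts, since probes and lengths differ.

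Each difference was taken within a gradient and tested with limma 3.58.1 in R 4.3.3 (lmFit and eBayes), with Benjamini-Hochberg adjustment over 6524 rows and a threshold of 0.05. Standard errors are those of limma, and folds are 2 to the power of the centred mean. The difference between genotypes used 3 gradients each. The labels call the gradients biological replicates. Pools of 1 gradient come from 1 lysate, and their deviations from the pool means correlated with r of 0.49, 0.26 and 0.25. Replicate numbers are not said to link genotypes. Between wild type and *smaug* mutant, deviations of the centred pool 4 to pool 3 difference correlated with r of -0.01, -0.16 and -0.02. This is another measure than the one for pools, so the 2 sets of r cannot be compared. The fits were also run on simulated data with equal spread in each gradient. The real gradients differ in spread, so those runs do not show how the fits behave with gradient 2. Gene names came from synonyms in a RefSeq gene table, whose assembly may not be that of the array design, for 35 rows, and each gene list had under 80% of its members named and was left undescribed. The rule named transcripts with all 3 gradients on 1 side of 0, by p where none passed the threshold, at most 12 each way, and 2 unnamed ones each way. Members, lists and rule were chosen with earlier results of these data known. Alternatives were the pairing, a filter on dim rows, other eBayes settings, quantile normalisation, scaling to 1 spread, a fit of all 10 gradients and leaving out each gradient. Weights per gradient were added after seeing the data.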

Additional observations from a re-analysis of the deposited data

Results flagged for a closer look

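The rule for naming picked 22 transcripts, with or without a gene name, all on one side of 0 in the 3 wild-type gradients. Of these, 13 lay on the other side in both puromycin gradients of *smaug*-mutant lysate, in the centred pool 4 to pool 3 difference. As deposited, 5.40% and 4.14% of all transcripts were higher in pool 4 in these gradients, so a place above 0 can rest on centring. Such a change of side was common. Of the 1806 transcripts higher in wild type, 21.4% and 11.7% were higher in the puromycin gradients. Of the 2136 lower ones, 62.7% and 70.7% were. This difference between groups was not tested, and wild type and puromycin gradients differ in genotype, buffer, incubation and drug. In the cycloheximide gradients, made from parts of the same mutant lysates, 12 of the 13 lay on the wild-type side in both, all but *Dyrk3*. There, 86.8% and 92.2% of the 1806 transcripts were higher in pool 4, against 10.2% and 5.71% of the 2136. Of those higher in pool 4 in wild type, the puromycin mean was -1.12 for *kis*, -1.64 for *Dyrk3*, -0.87 for *alpha-Spec*, -1.37 for *Uba1* and -1.94 for *fend*. For FBtr0081685 and FBtr0084699 it was -3.13 and -1.63. Of those lower in wild type, it was 1.02 for *CG9288/CG42375*, 1.31 for *HDAC3*, 0.57 for *vnc/CG42455*, 0.57 for *Ppcdc/CG42496*, 0.67 for *CG31917/Tfb5* and 0.60 for FBtr0078807. *His4r*, with -0.58 and -1.53 under puromycin, and *Mocs2B/Mocs2A*, with -1.64 and -0.12, stayed on their wild-type side. The others not among the 13 lay on both sides of 0 under puromycin.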

How the results depend on the processing

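The number of transcripts called by limma between pools 3 and 4 differed between settings. From 0 on the deposited scale, it went to 943 with quantile normalisation, 1013 with arrays scaled to 1 spread, 370 with all 10 gradients in 1 fit and 2557 with weights per gradient, which gave gradients 1, 2 and 3 weights of 1.60, 0.19 and 3.29. From 0 on the centred scale, it went to 408 without the dimmest 25% of rows, 943 with quantile normalisation, 1013 with 1 spread, 1059 with all 10 gradients and 2830 with weights. Leaving out each gradient in turn gave from 201 to 1902 calls as deposited and from 0 to 2392 centred, the highest in both without gradient 2. Without the pairing of pools (no replicate block) it stayed at 0 on both scales, where 814 higher and 181 lower transcripts had an unadjusted p under 0.05 as deposited and 729 and 845 centred, and it stayed at 0 with the trended and robust fit. Between genotypes it was 0 in each of 10 alternatives. With the replicate number as a block, 290 transcripts were higher in wild type and 211 lower by an unadjusted p of less than 0.05. The median difference over transcripts, 0.30, was between 0.03 and 0.45 when each gradient was left out, the lowest without gradient 2. Of 236 values under alternatives, of the 18 transcripts with and the 4 without a gene name that the rule picked, none changed direction. Most settings could not change the direction, as they average the same centred differences. The rule took only transcripts with all 3 of these on 1 side of 0. The threshold was passed by 70 values where the centred value with all gradients had not passed it. Of these, 19 were without gradient 2, 20 with weights, 2 without gradient 1 and 0 without gradient 3. With 3 gradients of which 1 is much wider, an adjusted p above the threshold does not show that a transcript was evenly divided.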

Other observations

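The 17 named transcripts outside the rule are described here by examples chosen after their values were seen. In 3 of the single-gene ones, gradient 2 was the highest: *SuUR*, whose protein slows DNA replication in polytene chromosomes, had centred pool 4 to pool 3 differences of -0.30, 1.59 and -0.30, *CG16974* had -0.40, 1.55 and -0.07, and *sle* had 0.32, 1.19 and -0.01. *PIG-M*, the main frame of a transcript that carries 4 genes and itself part of the synthesis of GPI anchors, had 0.02, 1.55 and -0.41.

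*mio* and *Wdr24* encode subunits of the same complex, GATOR2, which acts on the TOR pathway. *mio* had -0.29, -0.44 and -0.60 and lay below 0 in all 3 gradients, with an adjusted p of 0.248 in limma. *Wdr24* had 0.30, -0.59 and -0.00, on both sides of 0. Their profiles over the gradient also differed. *mio* had levels of 8.93, 6.96 and 8.02 in pool 1 and of 12.17, 11.19 and 12.72 in pool 3, whereas *Wdr24* had 12.91, 13.23 and 14.72 in pool 1 and 12.17, 11.49 and 12.68 in pool 3.

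Some transcripts of mitochondrial proteins carried reading frames of more than 1 gene. *ND-MNLL/CG45089*, which encodes a subunit of respiratory complex I, had closely placed values of -0.37, -0.44 and -0.42 with a low signal in both pools, from 8.16 to 9.44. *Tim10/CG42497*, for a chaperone of import into mitochondria, had -0.17, -1.11 and 0.77, on both sides of 0.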
